A study of Mus musculus with 4 samples.

Results

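The matrix metalloproteinases, their tissue inhibitors, the ADAM and ADAMTS proteases and the lysyl oxidases were examined in mouse pancreatic islets. Members were taken by gene name in the scanner files, as every non-control probe for an Mmp, Timp, Adam, Adamts, Adamtsl, Lox or Loxl gene. This gave 134 probes for 88 genes, of 55681 probes and 22393 genes on the arrays. Where a gene has several probes, the brightest by mean log2 signal over the 4 arrays stands for it. All 88 file symbols are current symbols of the RefSeq table, and a further 2 probes that RefSeq assigns to the same families carry other names in the files and are not members.

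The islets came from C57BL/6 mice at 24 weeks of age and were hybridised to 4 Agilent arrays in 1 colour (Cy3), 1 array for each group. The groups were transgenic males profiled 6 weeks after an E2 implant (male Tg E2), transgenic females (female Tg), transgenic males labelled as diabetic (male Tg) and wild-type males (male WT). E2 usually stands for estradiol. The transgene, the promoter that drives it, the dose of the implant and the number of mice behind each array are not given in the sources used here. No untreated wild-type female and no implanted wild-type male is among the groups analysed here, so sex cannot be told apart from what else differs between the female Tg and male WT arrays. With 1 array per group, each difference is between 2 arrays and not between conditions, and no p-value is given. Below, "in male Tg" means on the array of that group.

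These genes build and remodel the matrix around cells. Secreted metalloproteinases cut collagens, gelatin and other matrix proteins, the membrane-anchored ones do so at the cell surface, and TIMP proteins block both. ADAM proteases release the outer part of membrane proteins such as growth factors and cytokines, ADAMTS proteases trim procollagens and proteoglycans, and lysyl oxidases crosslink collagen and elastin. In the pancreas, stellate cells and fibroblasts are known as main sources of interstitial collagen and of the enzymes that process it. Islets are usually freed from exocrine tissue by digestion, so a preparation can hold cells of the surrounding tissue, and in bulk RNA a change in the number of such cells cannot be told apart from a change in RNA per cell.

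Several secreted metalloproteinase genes lie side by side. The probes of 10 members (Mmp13, Mmp12, Mmp1b, Mmp3, Mmp1a, Mmp10, Mmp8, Mmp27, Mmp20 and Mmp7) fall within 415 kb of chromosome 9 on mm9. Promoters of metalloproteinase genes are known for a site of the AP-1 transcription factor, and the letters TGAGTCA and TGACTCA were searched in RefSeq promoter windows of build GRCm38.p6, which run from 250 bases before to 50 bases after the start of a gene. Each of these letter strings is the reverse complement of the other, so both strands are covered. A match was found in 5.20% of all 32851 windows. Among members, 53 of 88 have a window in the table and 10 of these hold a match, 7 of them in the chromosome 9 group of 10 and 3 among the other 43. The 3 are Adam19, Adam1b and Adam29. The 4 sequences below are the 100 bases before the start of 4 genes of this group whose levels are described below, with the AP-1 letters in capitals, 5′ to 3′ on the plus strand of GRCm38.p6. They are credited to RefSeq, at chr9:7445722-7445821 for Mmp3, chr9:7691990-7692089 for Mmp7, chr9:7502242-7502341 for Mmp10 and chr9:7272414-7272513 for Mmp13.
Mmp3: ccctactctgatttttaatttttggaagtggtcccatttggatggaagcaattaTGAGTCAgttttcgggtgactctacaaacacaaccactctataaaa
Mmp7: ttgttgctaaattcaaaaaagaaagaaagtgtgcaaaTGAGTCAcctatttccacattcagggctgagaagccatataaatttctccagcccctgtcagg
Mmp10: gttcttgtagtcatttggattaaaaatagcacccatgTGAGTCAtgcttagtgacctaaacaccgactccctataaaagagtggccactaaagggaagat
Mmp13: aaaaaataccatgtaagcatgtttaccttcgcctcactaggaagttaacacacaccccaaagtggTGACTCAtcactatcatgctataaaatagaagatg
The match begins 46 bases before the start in Mmp3, 63 bases before it in Mmp7 and in Mmp10, and 35 bases before it in Mmp13. Mmp12 (44 bases), Mmp1a (73 bases) and Mmp1b (93 bases) hold it too, although neither Mmp1a nor Mmp1b passed background on any array. A match of letters is a description and shows no binding.

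Levels are given as log2 of the processed intensity relative to the array's own 75th percentile, so 0 is that percentile, and levels of different probes are not compared. A probe "passed background" where the scanner software called it well above background, and was measured in a comparison where it did so on both arrays. Where only 1 array passed, the difference is given as "at least", against the higher of the dim probe's own signal and the lowest signal that passed on that array. A 2-fold difference, 1 on the log2 scale, is the threshold throughout. That percentile lay at an intensity of 337, 294, 230 and 410 in male Tg E2, female Tg, male Tg and male WT, and no spot was saturated. Spots of probes printed 10 times varied within an array by a median SD of 0.0655 to 0.0755 log2. The scanner software's error model gave a measured member a median standard error (SE) of 0.22 to 0.23 log2 for a difference between any 2 of the Tg arrays compared, and 0.23 for male Tg over male WT. Neither contains the spread between mice. On all 4 arrays all 8 beta cell markers passed background, and so did all 7 acinar markers. Of all genes 65.3% to 68.3% passed it on an array, so passing alone does not show which cells a preparation held.

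Of the 88 members, 47, 41, 45 and 42 passed background in male Tg E2, female Tg, male Tg and male WT. That is 53.4%, 46.6%, 51.1% and 47.7%, below the 67.9%, 65.3%, 68.0% and 68.3% of all genes on the same arrays. On all 4 arrays 34 members passed it, and on no array 35. The 35 include 9 of 16 secreted metalloproteinases, 9 of 19 Adamts proteases, 10 of 20 Adam genes known mainly from testis and epididymis, and the crosslinking enzyme genes Lox and Loxl4.

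**Figure D1:**
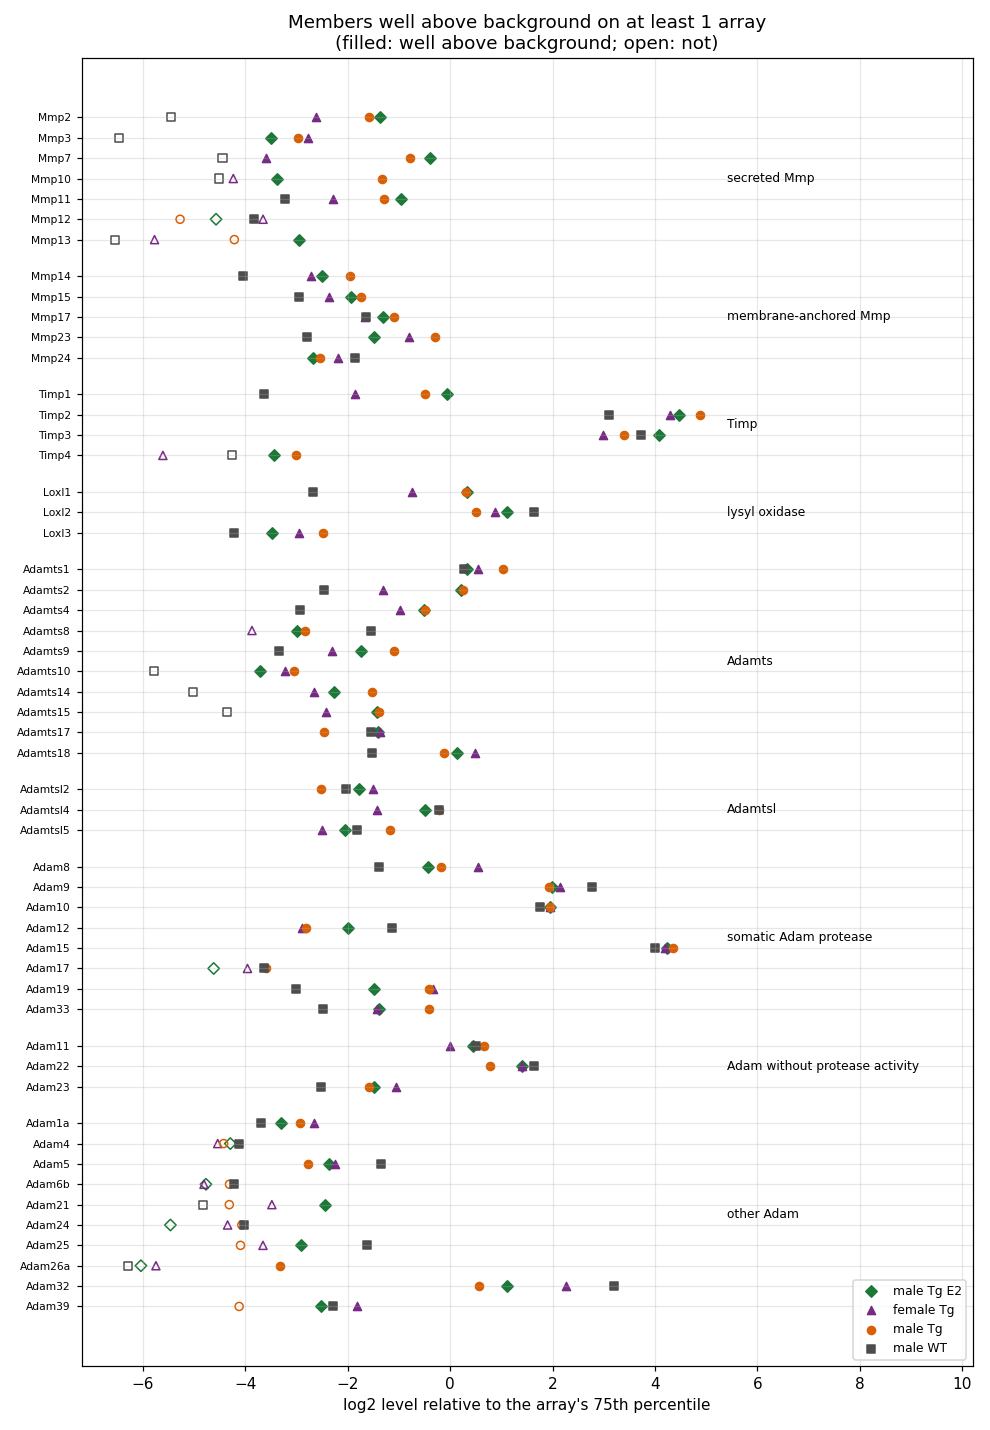
Each row is 1 of the 53 members well above background on at least 1 array, grouped by role. The horizontal axis is the log2 level relative to the array's 75th percentile, colour and shape give the array, and open symbols are not well above background. In the secreted Mmp rows the male WT squares are open for Mmp2, Mmp3, Mmp7, Mmp10 and Mmp13, and in the Timp1, Timp2 and Loxl1 rows all Tg symbols lie right of the male WT square.

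Setting male Tg against male WT asks what goes with the transgene and the diabetes in male islets. Inhibitors, crosslinking enzymes, Adamts proteases and metalloproteinases were mostly higher in male Tg among those past 2-fold, while a few Adam genes and Loxl2 were lower, and Adamts8 was lower on its chosen probe and higher on another. Of 36 measured members, 15 were at least 2-fold higher, where 15.5% of all measured genes were, and 5 at least 2-fold lower, where 9.05% were. Their median difference was 0.71 log2, beside −0.22 for all 14402 measured genes. Members that failed background on either array stand outside this count, and of these 9 were higher and 2 lower by an "at least" value. Of all genes that passed background in male Tg only, 90.4% were higher in this way, and of those that passed it in male WT only, 14.5% were lower. With normexp background modelling 12 of the 15 higher and 2 of the 5 lower members were still past 2-fold, and with quantile normalization after it 9 and 2. Of all 14402 genes, 1734 were higher and 997 lower in the first setting, and 1598 and 648 in the second. Beside those counts, 2 lower of 36 members is near the share of all genes. Adam8, Loxl3 and Mmp15 fell under 2-fold in both settings, and Adamts18, Mmp11 and Mmp14 in the second. Of the lower members, Adam5 and Adamts8 did so in both, Adam12 in the first and Loxl2 in the second. All 7 acinar markers and 8 of 9 measured stellate cell and fibroblast markers were also higher in male Tg than in male WT (medians 4.86 and 2.80 log2), and their part in these differences was not tested.

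Secreted metalloproteinases were little seen on any array, with 6, 4, 5 and 2 of 16 passing background in male Tg E2, female Tg, male Tg and male WT. Of all genes 65.3% to 68.3% passed it. The 2 in male WT were Mmp11 and Mmp12. Mmp7, called matrilysin and made mainly by epithelial cells, had levels of −0.39, −3.59 and −0.78 in male Tg E2, female Tg and male Tg, and −4.45 in male WT, where it did not pass background. The female Tg level lay far below those of both male Tg groups. Mmp7 was at least 12.6-fold higher in male Tg than in male WT, while for female Tg over male WT the "at least" value was 1.79-fold. The probe lies at chr9:7697641-7697700 on mm9. Mmp10, or stromelysin 2, had −3.38, −4.24, −1.33 and −4.51 in male Tg E2, female Tg, male Tg and male WT, and passed background in male Tg E2 and male Tg only. It was at least 8.62-fold higher in male Tg than in male WT. Mmp2, the gelatinase of mesenchymal cells, had −1.38, −2.62 and −1.59 in male Tg E2, female Tg and male Tg, and −5.45 in male WT, the only array where it did not pass background. It was at least 7.16-fold higher in male Tg than in male WT. Mmp3, or stromelysin 1, passed background on the same 3 arrays (−3.49, −2.77 and −2.97) and not in male WT (−6.47), and was at least 2.76-fold higher in male Tg than in male WT. Mmp11, a stromal metalloproteinase that furin activates inside the cell, had −0.96, −2.29, −1.29 and −3.23 in male Tg E2, female Tg, male Tg and male WT. It differed by 1.94 log2 (SE 0.25) between male Tg and male WT, and by 1.17 on its other probe. Mmp13, the main collagenase of mice, had −2.95, −5.77, −4.22 and −6.55 in male Tg E2, female Tg, male Tg and male WT, and passed background in male Tg E2 only. Mmp12, the macrophage elastase, did so in male WT only (−3.84), close to background. Mmp9, the gelatinase of neutrophils and macrophages, was printed in 10 spots. Its mean levels were −5.93, −5.23, −4.89 and −6.43 in male Tg E2, female Tg, male Tg and male WT. Of all 10 spots, flagged ones included, 1 passed background in male Tg E2, 0 in female Tg, 1 in male Tg and 0 in male WT. Mmp8, the neutrophil collagenase, did not pass background on any array.

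Of 7 membrane-anchored metalloproteinases, 5 were measured and 3 were at least 2-fold higher in male Tg than in male WT, where 15.5% of all measured genes were. Mmp14, also called MT1-MMP, which activates the Mmp2 protein at the cell surface, had −2.51, −2.72, −1.95 and −4.05 in male Tg E2, female Tg, male Tg and male WT. The male WT level was the lowest of the 4 and near the lowest that passed background there, −4.43. The male Tg array was 2.10 log2 above male WT (SE 0.33). Mmp23 had −1.48, −0.81, −0.30 and −2.79 in the same order of arrays, with a difference of 2.49 between male Tg and male WT (SE 0.23). Mmp15, or MT2-MMP, had −1.94, −2.36, −1.74 and −2.95 and differed by 1.22 (SE 0.25) between male Tg and male WT. Mmp17 (0.54) and Mmp24 (−0.69) lay between the 2-fold limits.

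All 4 tissue inhibitors passed background in male Tg. Timp1, a secreted inhibitor that is induced in wounded and inflamed tissue, had levels of −0.05, −1.86, −0.48 and −3.63 in male Tg E2, female Tg, male Tg and male WT. The male WT level lay far below the other 3 and near the lowest that passed background there, −4.43. The male Tg array was 8.85-fold above male WT (3.15 log2, SE 0.30), the largest measured difference among the chosen probes of members in this comparison. The Timp1 probe lies at chrX:20451802-20451861 on mm9. Timp2, which takes part with the Mmp14 protein in the activation of the Mmp2 protein, had 4.46, 4.28, 4.88 and 3.10 on the same arrays, a difference of 1.79 (SE 0.20) between male Tg and male WT. A dimmer Timp2 probe gave 0.78, so the size of that difference depends on the probe. Timp3, the inhibitor that binds to matrix, had 4.08, 2.98, 3.38 and 3.72 and differed by −0.33 (SE 0.20) between male Tg and male WT. Timp4 had −3.43, −5.61, −3.01 and −4.26, passed background in male Tg E2 and male Tg only, and was at least 2.38-fold higher in male Tg than in male WT.

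Among lysyl oxidases, 3 of 5 were measured and they did not move in 1 direction. Loxl1, an elastic fibre crosslinking enzyme, had 0.33, −0.74, 0.30 and −2.69 in male Tg E2, female Tg, male Tg and male WT, which is 7.92-fold higher in male Tg than in male WT (2.99 log2, SE 0.24). Loxl3 had −3.48, −2.96, −2.48 and −4.23 on those arrays and differed by 1.75 (SE 0.35). Loxl2, which acts on the collagen of basement membranes, went the other way. Its levels were 1.11, 0.87, 0.50 and 1.63, with a difference of −1.13 (SE 0.20) between male Tg and male WT, and its other 2 probes gave −1.54 and −1.45. The chosen probe was under 2-fold with quantile normalization, with centring on the median of all genes and with the percentile over detected probes. Lox and Loxl4 had levels from −4.57 to −6.70 and from −5.53 to −6.66, none of which passed background.

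Adamts proteases, with 19 genes one of the larger roles, made up the largest group of higher members. Of the 19, 7 were measured, 4 of them at least 2-fold higher in male Tg than in male WT and 1 lower. By an "at least" value 3 more were higher. Of all measured genes 15.5% were higher and 9.05% lower. By an "at least" value, 90.4% of genes that passed background in male Tg only were higher. Adamts2, which removes the amino end of fibrillar procollagens, had 0.21, −1.31, 0.25 and −2.47 in male Tg E2, female Tg, male Tg and male WT, so the male Tg array was 6.62-fold above male WT (2.73 log2, SE 0.22). Its relative Adamts14 had −2.28, −2.65, −1.54 and −5.02 and was at least 7.45-fold higher in male Tg than in male WT. Adamts4, which cuts aggrecan and versican, had −0.51, −0.98, −0.50 and −2.92, a difference of 2.43 (SE 0.24) between male Tg and male WT. Adamts9, also a versican protease, had −1.75, −2.30, −1.10 and −3.34 and differed by 2.24 (SE 0.26). Adamts15, another protease of versican, had −1.43, −2.43, −1.39 and −4.36 and was at least 7.82-fold higher in male Tg than in male WT. Adamts10, which acts on fibrillin microfibrils, had −3.71, −3.22, −3.05 and −5.78 and was at least 2.61-fold higher in male Tg than in male WT. The other probes of Adamts2, Adamts14 and Adamts10 did not pass background on any array. Adamts18 had 0.13, 0.48, −0.12 and −1.53, a difference of 1.41 (SE 0.21) between male Tg and male WT, and 1.59 on its other probe. In these 7 genes the male WT level was the lowest of the 4 arrays, but Adamts10, Adamts14 and Adamts15 did not pass background there. For a probe without signal this order says little. Adamts19, which passed on no array, was also lowest in male WT, at −6.04, −5.75, −5.76 and −6.54. Adamts8 was counted as lower, with −3.00, −3.87, −2.84 and −1.55 in male Tg E2, female Tg, male Tg and male WT and a difference of −1.30 (SE 0.27) on the chosen probe. Its other probe had −3.75, −4.36, −2.84 and −4.61, passed background in male Tg only, and was at least 3.01-fold higher in male Tg than in male WT, so no direction is given for Adamts8. Adamts1, a versican protease, had 0.33, 0.55, 1.03 and 0.28. Its difference (0.75) and that of Adamts17 (−0.92) lay between the limits. Adamts5, an aggrecan protease, did not pass background on any array, with levels from −4.14 to −5.84. The Adamtsl genes, whose products share the ADAMTS matrix-binding modules and lack the protease domain, had 3 of 5 members measured and none past 2-fold. For Adamtsl5 the other probe gave 3.68 in place of 0.66, so its size depends on the probe here as well.

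Of 9 Adam proteases known from somatic tissues, 8 were measured, of which 3 passed 2-fold upward in male Tg over male WT and 1 downward. Of all measured genes 15.5% and 9.05% did so. Adam10 and Adam17, the main sheddases of Notch receptors and of tumour necrosis factor, differed by 0.21 (SE 0.20) and 0.05 (SE 0.38). Adam10 had 1.96, 1.94, 1.95 and 1.75 in male Tg E2, female Tg, male Tg and male WT, a range close to the scanner software's error. Adam17 was close to background on every array, with −4.62, −3.96, −3.60 and −3.64, and passed it in male Tg and male WT only. Adam15 (0.34) and Adam9 (−0.84) also lay between the limits. Adam19 had −1.49, −0.33, −0.41 and −3.01, with male WT the lowest, and was 6.06-fold higher in male Tg than in male WT (2.60 log2, SE 0.25). The other Adam19 probe did not pass background on any array. Adam33, which is expressed in mesenchymal cells, had −1.40, −1.43, −0.41 and −2.48 and differed by 2.06 (SE 0.22), which is 4.18-fold, while another probe was at least 7.88-fold higher. Adam8, a protease of leukocytes, had −0.43, 0.53, −0.19 and −1.39 and differed by 1.21 (SE 0.21). Adam12, a protease known from muscle and mesenchymal cells, had −1.999, −2.89, −2.82 and −1.14 and was the lower one, by 1.68 log2 (SE 0.26), although its other 2 probes did not pass background on any array.

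Adam11, Adam22 and Adam23, neuronal membrane proteins without protease activity, were measured on all 4 arrays. In male Tg over male WT they differed by 0.15, −0.86 and 0.93, all between the limits, while another Adam11 probe gave 1.68. That probe gave 1.57 and 1.68 in male Tg E2 and female Tg over male WT, where the chosen probe gave −0.06 and −0.51. Adam23 had −1.48, −1.06, −1.59 and −2.52 in male Tg E2, female Tg, male Tg and male WT, and passed 2-fold over male WT in male Tg E2 (1.03) and female Tg (1.46). Another Adam23 probe passed background in male Tg only, at least 2.15-fold higher than in male WT, so the order of the arrays depends on the probe. Among the 20 Adam genes known mainly from testis and epididymis, 3 were measured in male Tg over male WT, of which 2 were at least 2-fold lower and 0 higher. Of all measured genes 9.05% were lower and 15.5% higher. Adam32 had 1.099, 2.26, 0.56 and 3.19 in male Tg E2, female Tg, male Tg and male WT, the male WT level being the highest, and was 6.23-fold lower in male Tg than in male WT (−2.64 log2, SE 0.20). These values come from 1 probe at chr8:25946632-25946691 on mm9, while the other Adam32 probe at chr8:25981159-25981218 did not pass background on any array. Adam5, which lies beside it with a probe at chr8:25843457-25843516, had −2.36, −2.25, −2.78 and −1.34 and differed by −1.43 (SE 0.26). Adam25 had −2.92, −3.66, −4.10 and −1.63, passed background in male Tg E2 and male WT only, and was at least 4.25-fold lower in male Tg than in male WT. Adam39 was lower by at least 2.71-fold. Adam25, Adam26a and Adam39 have close relatives among mouse testis genes, which a probe may not tell apart. Adam26a passed background in male Tg alone (−3.33) with an "at least" value over male WT of 2.15-fold, and its other probe passed on no array. Adam1a, at −3.30, −2.66, −2.94 and −3.69, passed 2-fold only in female Tg over male WT (1.03, SE 0.31).

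Genes that act with these enzymes were taken from lists of each system. In male Tg over male WT, 5 of 9 measured matrix substrate genes were at least 2-fold higher and none lower, with Col1a1 at 4.51 log2, Col3a1 at 4.23 and Col1a2 at 3.13, and 2 more, Eln and Fbn1, were higher by an "at least" value. Read beside 15.5% higher, 9.05% lower and a median of −0.22 over all measured genes, the matrix substrates had a median of 1.13. Of 12 collagen maturation enzymes 5 were higher and 1 lower, with a median of −0.18. The crosslinking enzyme gene Tgm2 (2.82), the procollagen proteinase enhancer gene Pcolce (2.64) and the collagen chaperone gene Serpinh1 (2.07) were among the higher ones, and Bmp1, the procollagen C-proteinase gene, was the lower one (−1.55). Of 8 TGF beta pathway genes 5 were higher and 1 lower (median 1.23), with Tgfb3 at 1.86, Tgfbr2 at 1.85 and Tgfbr1 at −1.16. Of 4 measured plasminogen system genes 3 were higher (median 1.25), led by the urokinase receptor gene Plaur (2.02). Cathepsins were higher in 2 of 6 cases, Ctsk (2.05) and Ctss (1.21), with a median of 0.68. Of 5 other regulators of metalloproteinases 1 was higher, Sparc (1.46), with a median of 0.01. Of 14 substrates and partners of ADAM proteases 7 were higher and none lower (median 0.87), among them Adamdec1 (3.93) and Areg (2.11).

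**Figure D2:**
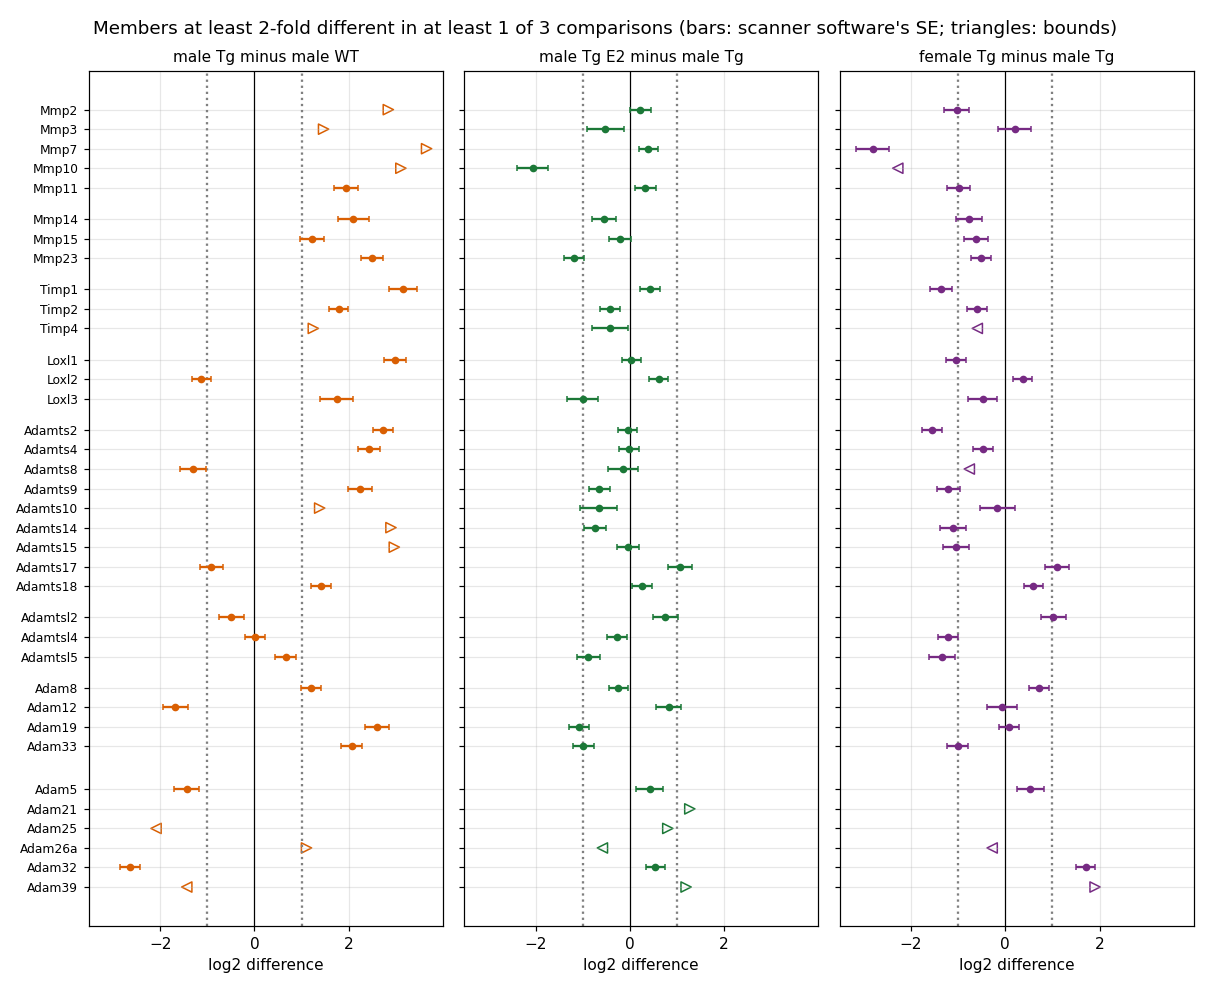
Log2 differences in the 3 comparisons for the members at least 2-fold different in any of them, as measured values or bounds. Points are measured differences with the scanner software's standard error as bars, open triangles are "at least" values, and dotted lines mark 2-fold. Most points and triangles in the male Tg minus male WT panel lie right of 0, and Mmp10, Mmp7 and Adamts2 lie left of −1 in at least 1 of the other panels.

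Male Tg E2 was set against male Tg, the array labelled as diabetic, to describe what goes with the implant. With 1 array each, a difference that goes with the implant cannot be told apart from one of diabetes or between mice. Few members differed by 2-fold, and the largest measured difference among the chosen probes was in Mmp10. Of 43 measured members 1 was at least 2-fold higher, where 2.61% of all measured genes were, and 4 at least 2-fold lower, where 7.92% were. These counts give no difference particular to the members. With the percentile taken over detected probes the split was 0 higher and 5 lower, and with centring on the median of all genes 0 and 6. The median of measured members was −0.15 log2, beside 0.13 for all 14637 genes. By an "at least" value 2 members were higher, where 18.0% of genes that passed background in male Tg E2 only were, and 0 lower, where 43.3% of genes that passed it in male Tg only were. Adam21 passed background in male Tg E2 alone (−2.45) and was at least 2.41-fold higher there, and Adam39 at least 2.29-fold.

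Mmp10 was 4.17-fold lower in male Tg E2 than in male Tg (−2.06 log2, SE 0.33), with a male Tg E2 level of −3.38 close to the lowest level that passed background there, −3.91. Under normexp with quantile normalization no member stayed past 2-fold, and under normexp alone 1 did, Mmp10. Of all 14637 genes, 182 were higher and 767 lower in the first setting, and 204 and 741 in the second. Of the neighbours of Mmp10 on chromosome 9, Mmp7 and Mmp3 were measured and neither passed 2-fold. Mmp7 differed by 0.39 (SE 0.21) and Mmp3 by −0.53 (SE 0.39), and for Mmp13 the "at least" value was 1.71-fold higher. Mmp3 had −2.97 in male Tg, close to that lowest passing level of −3.91, so a fall like that of Mmp10 could not be measured in it. Mmp23 was lower by 1.18 log2 (SE 0.21) and Adam19 by 1.08 (SE 0.22). Loxl3 lay at the threshold (−1.003, SE 0.32), and Adam33 just inside it (−0.99), with −2.19 on another Adam33 probe. The higher member was Adamts17, with levels of −1.41, −1.37, −2.46 and −1.55 in male Tg E2, female Tg, male Tg and male WT and a difference of 1.06 (SE 0.25) between male Tg E2 and male Tg. On this chosen probe the male Tg level of Adamts17 stood below the other 3, which lay within 0.18 of each other. The other Adamts17 probe had −3.72, −3.42, −3.72 and −3.20 on the same arrays and passed background in male WT only. The difference thus rests on the chosen probe.

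Several members with large differences between male Tg and male WT had similar levels in male Tg E2 and male Tg. In male Tg E2 over male Tg, Timp1 differed by 0.43 (SE 0.21), Loxl1 by 0.03 (SE 0.21), Adamts2 by −0.05 (SE 0.21), Adamts4 by −0.02 (SE 0.21), Adamts15 by −0.04 (SE 0.23) and Mmp2 by 0.22 (SE 0.22). For Timp2 the chosen probe gave −0.42 and the other probe 0.21, so no direction is given. Timp3 (0.70), Timp4 (−0.42), Loxl2 (0.61), Mmp14 (−0.55), Adamts1 (−0.69) and Adam10 (0.00) lay between the limits. Set directly against male WT, 14 of 37 measured members were at least 2-fold higher in male Tg E2, where 8.76% of all measured genes were, and 4 lower, where 2.68% were. By an "at least" value 7 were higher, where 71.5% of genes that passed background in male Tg E2 only were, and 0 lower, where 10.1% of those that passed it in male WT only were. Timp1 was 11.9-fold and Loxl1 8.09-fold higher in male Tg E2 than in male WT, Mmp7 at least 16.5-fold, Mmp2 at least 8.33-fold and Mmp13 at least 2.79-fold. With normexp background modelling 7 of the 14 higher and 1 of the 4 lower members stayed past 2-fold. Of all 14605 genes, 750 were higher and 254 lower with normexp and the 75th percentile scaling. This comparison shares its arrays with others and is not independent of them. Of the related lists, no gene of 11 measured matrix substrates passed 2-fold in male Tg E2 over male Tg, while Plaur (−1.48) was lower, as were Tgfb1 (−1.41), Ltbp1 (−1.36), Pcolce2 (−1.19), Adamdec1 (−1.39) and Areg (−2.22).

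Female Tg was set against male Tg, as transgenic arrays of the 2 sexes. The male Tg array carries the label diabetic, so a difference of sex cannot be told apart from one of diabetes. Several secreted matrix enzymes and Timp1 were lower in female Tg, with Mmp7, Mmp10, Adamts2 and Timp1 in front. Of 40 measured members 11 were at least 2-fold lower, where 8.43% of all measured genes were, and 3 at least 2-fold higher, where 3.63% were. The median was −0.48 log2, beside 0.11 for all 14227 genes. By an "at least" value 1 member was lower, where 38.2% of genes that passed background in male Tg only were, and 1 higher, where 31.5% of those that passed it in female Tg only were. These are Mmp10 and Adam39. With normexp background modelling, with either scaling, 2 of the 11 lower members stayed past 2-fold, Mmp7 and Adamts2, and 1 of the 3 higher, Adam32. Of all 14227 genes, 860 were lower and 223 higher there with 75th percentile scaling, and 886 and 252 with quantile normalization. Beside those counts, 2 lower of 40 members is no larger share, so the larger share of lower members depends on the processing. With centring on the median of all genes the split was 1 higher and 12 lower. The same male Tg array stands under the female Tg and the male Tg E2 arrays and above the male WT array, so a member with a high signal on it alone is lower in both of the first comparisons and higher in the other. All 7 acinar markers and 4 of 10 stellate cell and fibroblast markers were also lower in female Tg than in male Tg (medians −4.36 and −0.93), and their part in these differences was not tested.

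Mmp7 was 7.03-fold lower in female Tg than in male Tg (−2.81 log2, SE 0.35), and the female Tg level of −3.59 was just above the lowest that passed background there, −3.61. Mmp10 was at least 4.86-fold lower. Their neighbour Mmp3 differed by 0.20 (SE 0.35). Mmp2 was 2.05-fold lower (−1.03, SE 0.27) and Mmp11 lay just inside the limit (−0.99). All but 1 of the 5 measured membrane-anchored metalloproteinases were below 0 and none passed 2-fold, Mmp14 at −0.77 among them.

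Timp1 was 2.59-fold lower in female Tg than in male Tg (−1.37, SE 0.23), and its female Tg level still lay 1.77 log2 above male WT (SE 0.32). Timp2 (−0.60, and 0.27 on its other probe) and Timp3 (−0.41) were between the limits. Timp4 did not pass background in female Tg. Loxl1 was 2.06-fold lower (−1.04, SE 0.21, and −0.55 on its other probe), Loxl3 differed by −0.48 and Loxl2 by 0.37. Adamts2 was 2.96-fold lower (−1.56, SE 0.21), Adamts9 lower by 1.21 log2 (SE 0.25), Adamts14 by 1.12 (SE 0.28) and Adamts15 by 1.04 (SE 0.27), while Adamts4 was at −0.48 and Adamts1 at −0.48. Adamts17 went the other way (1.09, SE 0.25) on its chosen probe, while its other probe passed background on neither array. All 3 measured Adamtsl members passed the threshold, Adamtsl4 and Adamtsl5 downward (−1.21 and −1.34) and Adamtsl2 upward (1.02). The other Adamtsl5 probe was lower by at least 9.39-fold, so the size for Adamtsl5 depends on the probe. Adamtsl4 had −0.50, −1.43, −0.22 and −0.23 in male Tg E2, female Tg, male Tg and male WT, the female Tg level standing below the other 3. Adamtsl5 had −2.05, −2.51, −1.17 and −1.83, and Adamtsl2, which binds fibrillin microfibrils, had −1.78, −1.51, −2.53 and −2.04. Of the Adam genes, Adam33 was lower (−1.01, SE 0.22, and −2.01 on another probe) and Adam32 3.26-fold higher (1.71, SE 0.20), whereas Adam19 (0.08), Adam10 (−0.01) and Adam8 (0.72) lay between. Adam39 was at least 3.75-fold higher in female Tg than in male Tg, with levels of −2.53, −1.82, −4.12 and −2.28 in male Tg E2, female Tg, male Tg and male WT.

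Set against male WT, female Tg had 15 of 35 measured members at least 2-fold higher, where 7.61% of all measured genes were, and 2 lower, where 3.52% were. Adam19 (6.42-fold), Loxl1 (3.85-fold) and Timp1 (3.42-fold) were among the higher ones, and Adam12 (−1.75) and Adamtsl4 (−1.21) were the lower ones. With normexp background modelling 7 of the 15 higher members stayed past 2-fold, and Timp1 and Adamtsl4 did not, nor Adam12 with the 75th percentile scaling. Of all 14238 genes, 676 were higher and 331 lower with normexp and that scaling. By an "at least" value 5 members were higher, where 93.4% of genes that passed background in female Tg only were, and 2 lower, where 7.16% of those that passed it in male WT only were. Among these Mmp2 was at least 3.50-fold and Mmp3 at least 3.17-fold higher in female Tg than in male WT, and the chosen Adamts8 probe at least 4.17-fold lower. In female Tg over male Tg 4 of 10 measured matrix substrates were lower, Col1a1 (−1.98), Fbn1 (−1.92), Col3a1 (−1.87) and Col1a2 (−1.34), and none higher. Areg was at −3.29 and Reck, a membrane inhibitor of metalloproteinases, at 1.38.

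**Figure D3:**
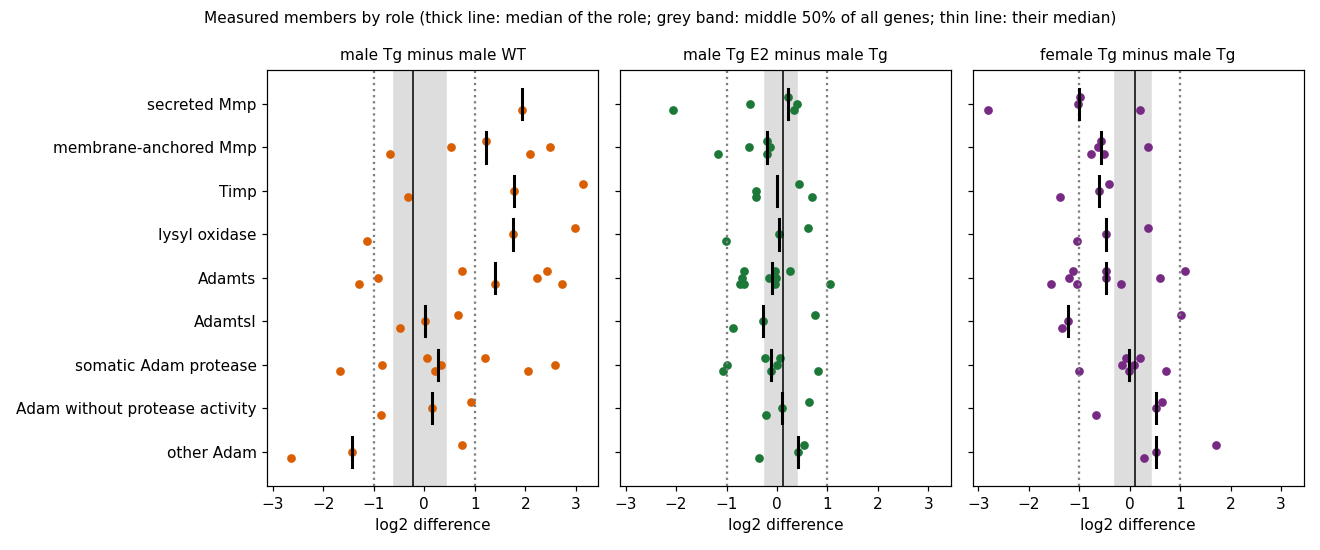
Each point is a measured member, placed by its role and its log2 difference, for the 3 comparisons. Thick lines are role medians, thin lines and grey bands give the median and the middle 50% of all measured genes, and dotted lines mark 2-fold. In male Tg minus male WT the only measured secreted Mmp (1.94) and the medians of membrane-anchored Mmp (1.22), Timp (1.79), lysyl oxidase (1.75) and Adamts (1.41) lie right of the band, and in female Tg minus male Tg those of secreted Mmp (−1.01), membrane-anchored Mmp (−0.57), Timp (−0.60), lysyl oxidase (−0.48), Adamts (−0.48) and Adamtsl (−1.21) lie left of it.

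Markers of other cell types differed between the same arrays, and their part in the differences of members was not tested. In male Tg over male WT, 8 of 9 measured stellate cell and fibroblast markers were at least 2-fold higher (median 2.80 log2), and Pdgfra passed background on the 3 Tg arrays only. The level summed over the 10 markers, as log2, was 5.92, 5.44, 6.48 and 3.52 in male Tg E2, female Tg, male Tg and male WT. All 7 acinar markers were higher in male Tg over male WT (median 4.86) and all 7 lower in female Tg over male Tg (median −4.36), with summed levels of 11.55, 8.96, 12.19 and 8.84 on the 4 arrays in the same order. Of 5 measured ductal markers 2 were higher in male Tg over male WT, Krt19 (3.20) and Spp1 (1.86), and 1 lower, Krt7 (−1.06), with a median of −0.11. In female Tg over male Tg 2 of 4 were lower, Krt19 (−3.90) and Spp1 (−1.05), with a median of −0.56, and Sox9 and Muc1 did not pass background in female Tg or male WT. Their summed levels were 4.02, 3.08, 4.22 and 3.67. For lymphocyte markers, 6 of 7 were higher in male Tg over male WT (median 3.37) and 6 of 7 lower in male Tg E2 over male Tg (median −1.83), with summed levels of 4.18, 5.70, 6.25 and 3.32. Of 8 macrophage markers 4 were higher in male Tg over male WT (median 0.81) and none passed 2-fold in male Tg E2 over male Tg (median 0.09), with summed levels of 5.93, 5.85, 5.88 and 5.64. Beta cell markers had a median of −1.26 in male Tg over male WT, 4 of 8 being lower, while their summed levels were 11.07, 11.01, 11.50 and 11.04, highest in male Tg. Neutrophil markers had medians of 1.15 in male Tg over male WT, −1.01 for the implant comparison and −0.99 in female Tg over male Tg, and platelet markers 1.35, −3.49 and −0.86. Endothelial markers had 0.60, −0.03 and −0.33, Schwann cell markers 0.67, −0.38 and −0.35, alpha cell markers 1.07, 0.14 and 0.15 and delta cell markers 1.49, −0.46 and −0.14 in the same comparisons.

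**Figure D4:**
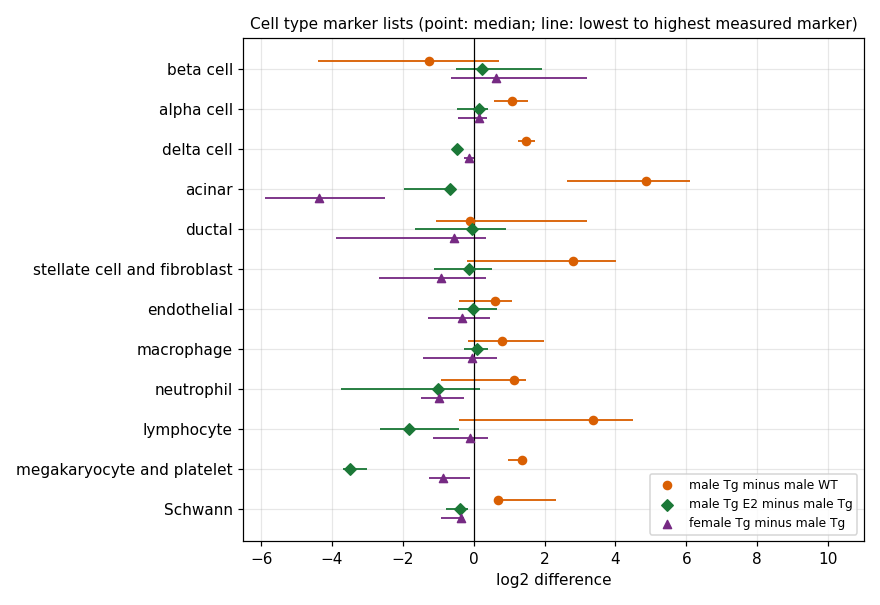
Cell type marker lists in the 3 comparisons, with the median log2 difference of measured markers as a point and the lowest and highest as the ends of a line. Acinar and stellate cell medians lie at 4.86 and 2.80 in male Tg minus male WT and at −4.36 and −0.93 in female Tg minus male Tg, while in male Tg E2 minus male Tg they lie at −0.67 and −0.12.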

How the data were processed

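The authors' deposited scanner files hold intensity on a linear scale, background-corrected and detrended within each array by Agilent Feature Extraction 10.7.1.1 per the file headers, whereas the submitters' processing notes name version 9.5.1.1. All 4 arrays share a scan time. Probe positions are on mm9 per the file headers, with no assignment to exons. The deposited series matrix holds intensity whose sorted values are the same in every column to within 0.1%, so it is quantile normalized by the look of its values, although no header or label says so, and it served as an alternative.

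Spots with an outlier flag and control spots were left out, spots of a probe were averaged, log2 was taken and each array's 75th percentile was subtracted (R 4.3.3, limma 3.58.1 for normexp with offset 50 and for quantile normalization, Python 3.11.15). Standard errors combine the scanner software's errors of 2 arrays. Genes are symbols in the files that a RefSeq table of GRCm38.p6 also holds by symbol, synonym or accession. Simulated differences of known size were used to test the code. Members, lists and comparisons were chosen with earlier results of these data known. Values on all 4 arrays are given for members past 2-fold and for a fixed set (Timp, Lox and Loxl genes, Mmp2, Mmp9, Mmp14, Adam10, Adam17, Adamts1, Adamts4, Adamts5), and related genes are named by size of difference. A planned search of protein sequences for protease motifs was not run, because no protein table was used, and Adam genes were grouped by textbook knowledge. A gene of the related lists is not reported here.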

Additional observations from a re-analysis of the deposited data

How the results depend on the processing

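No paired analysis was possible because there is 1 array per group and the labels carry no replicate numbers. The alternatives were other scalings, normexp background modelling with an offset of 50, the series matrix values, centring on the median of all genes, no background filter and the median over a gene's probes. Of 848 values of named members under them, 686 moved by less than their standard error, 162 moved by more, and 0 members past 2-fold turned sign. Background modelling, which pulls dim probes together, gave fewer members past 2-fold, and fewer of all genes. With 75th percentile scaling, male Tg over male WT had 2 lower in place of 5, male Tg E2 over male Tg 0 higher and 1 lower (Mmp10), female Tg over male Tg 1 higher and 2 lower (Mmp7 and Adamts2), and male Tg E2 and female Tg over male WT 7 higher and 1 lower each. With quantile normalization after it, male Tg over male WT had 9 higher and 2 lower with a median of 0.38, male Tg E2 over male Tg 0 and 0, female Tg over male Tg 1 and 2, and both other comparisons with male WT 7 and 1, with a median of 0.29 for female Tg. Without the background filter, which adds members with no clear signal, the higher and lower counts of 88 were 36 and 8 in male Tg over male WT, 7 and 15 when male Tg E2 was set against male Tg, 6 and 23 in female Tg over male Tg (median −0.13), 28 and 5 in male Tg E2 over male WT, and 26 and 5 in female Tg over male WT (median 0.79). Adamts17 fell under 2-fold in male Tg E2 over male Tg, leaving 0 higher, with the percentile taken over detected probes and with centring on the median of all genes, and that centring left 1 higher in female Tg over male Tg. Taking the percentile over detected probes moved the median of all genes in male Tg over male WT to −0.02, against −0.22. Loxl2 was under 2-fold in male Tg over male WT with that percentile, with quantile normalization, the matrix and median centring, as was Loxl3 in male Tg E2 over male Tg with quantile normalization and the matrix. Signal limits the values of members that lie near background on at least 1 array, among them Mmp3, Mmp7, Mmp10, Mmp13, Mmp14, Timp1, Adam17 and Loxl3.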
